A study of Mus musculus with 59 samples.

Results

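The 6 genes described here, Ints1, Ints2, Ints4, Ints5, Ints6 and Asun, encode subunits of the Integrator complex. They are 6 of the 23974 genes in a total RNA table from mouse embryonic stem cells (ESCs), and all 6 were among the 6952 genes with a mean normalised read count of at least 10. They were chosen by their values at 8 h of Actinomycin D, where several stood higher in knockout (KO) than in control cells. The contrast at 8 h is therefore a description from which nothing is read as a test, and the tests are those between libraries of 0 and 4 h. The 8 h libraries enter them through the shared estimate of the spread, and a fit of the 0 and 4 h libraries alone gave the same number of called members in each comparison.

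The study asked how loss of Zcchc8 changes RNA stability. Zcchc8 is a zinc finger protein of the nuclear exosome targeting complex, which hands nuclear RNAs to the exosome for degradation. The cells were derived ESC lines of the BDF1 strain, grown with LIF, CHIR99021 and PD0325901, and were either Zcchc8 knockout (KO) or wild type (control). All of them, the 0 h cells included, are labelled as part of a treatment with Actinomycin D, a drug that blocks transcription, at 5 µg/ml. RNA was taken from KO cells at 0, 4 and 8 h and from control cells at 0, 4 and 8 h, with 2 libraries in each of the 6 groups. The labels do not give the number of clones behind the KO line or say whether the 2 libraries of a group came from separate cultures. P-values therefore measure only how far these libraries spread, and that spread may be technical.

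Integrator is a large nuclear complex that binds RNA polymerase II soon after the start of transcription. It cleaves the nascent RNA with an endonuclease, which makes the 3′ ends of small nuclear RNAs and ends many short transcripts, and it carries the phosphatase PP2A, which opposes the release of paused polymerase. Ints1 and Ints2 belong to its backbone, Ints4 holds the cleavage module, Ints5 and Ints6 belong to the part that carries PP2A, and Asun, also called Ints13, lies in a peripheral module with Ints10 and Ints14. The RNAs measured here code for these proteins. They say nothing of the amount of complex.

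The 6 RNAs differ in their 3′ untranslated regions (UTRs), where many signals for RNA decay lie. Ints6 and Ints2 have 3′ UTRs of 1887 and 1951 bases, against a median of 998 bases over 6130 transcripts, while those of Asun, Ints1, Ints4 and Ints5 have 314, 233, 204 and 153 bases. Both long UTRs, and none of the 4 short ones, hold matches to TGTANATA, the core letters bound by Pumilio proteins, which are repressors of mRNA stability and translation. Matches on the transcript's strand were found in the 3′ UTRs of 24.6% of the 6130 transcripts. That share is over UTRs of all lengths, longer UTRs have more room for a match, and UTRs of like length were not counted. The windows around the matches are shown because they set apart the pair of members with long UTRs. They are read 5′ to 3′ from GRCm38, to which the transcripts were matched by RefSeq identifier, on the minus strand, with the matched letters in capitals. The Ints6 matches lie 648 and 1693 bases after the stop codon, and the Ints2 window holds 2 matches, the first of them 1789 bases after it.
Ints6, chr14:62677553-62677578: gtgtgtgtgTGTATATActatattct
Ints6, chr14:62676508-62676533: gaatcataaTGTAAATAtctgctatg
Ints2, chr11:86210819-86210847: atgaTGTAAATAaaataTGTAAATAatat
AUUUA, the core of AU-rich elements, occurs 4 times in the 3′ UTR of Ints6, 7 times in that of Ints2 and 1 time in that of Asun, and it is absent from those of Ints1, Ints4 and Ints5. As ATTTA, it is found in 66.6% of the transcripts, again over UTRs of all lengths. Ints5 is also the member with the fewest exons, 2, whereas the other 5 have 18 to 47. A match is a stretch of letters and not a shown binding site.

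Libraries held 465324 to 1364523 reads. 1 read was worth 0.452 to 3.23 units of normalised read count, and the 6 genes drew between 6 and 448 reads in a library, so single values of the low members carry large counting error. The 2 control libraries of 0 h stood apart. Their median gene differed by 0.81 on the log2 scale, and their correlation over genes was 0.837, against 0.872 to 0.938 in the other groups. Zcchc8 itself had 25.3 and 5.29 units in KO cells at 0 h, against 59.3 and 77.5 in control cells, a log2 change of -2.42 ± 0.68 (SE; limma adjusted p = 0.0332). At 8 h it had 9.56 and 3.78 units in KO cells and 7.57 and 11.3 in control cells, so that the groups overlapped. Of 11 ESC markers, 9 were among the genes tested, Pou5f1, Sox2 and Klf4 included, and Nanog and Esrrb were listed at or near 0. Genes that every cell uses, such as Nelfb and Cpsf1, were also listed at 0, so such a listing does not measure absence. Summed ESC markers, as CPM without the ribosomal gene Rn45s, were lower in KO without overlap at each time. They had 2795 to 3009 in KO and 3427 to 3805 in control cells at 0 h. At 4 h they had 1899 to 2092 and 2263 to 2492. On the deposited scale the sums overlapped at each time. Over the mean of 0 and 4 h, 7 of the 9 changes were above 0 as deposited, with no call. After TMM scaling 1 was above 0, and Tdgf1 was called lower (-0.68, limma adjusted p = 0.0439). Of 12 fibroblast markers, 9 were tested. Over the mean of 0 and 4 h, 7 of these were called higher in KO, beside 8.63% of all genes. After TMM scaling 7 were called higher too, beside 3.98%. Among them Vim, an intermediate filament gene, changed by 1.20 ± 0.26 (SE; limma adjusted p = 0.00188). The summed fibroblast markers stood at 12240 to 16120 units in KO cells and 5161 to 8440 in control cells at 0 h, at 15210 to 16510 in KO and 7513 to 8992 in control cells at 4 h, and at 9201 to 12020 in KO and 6694 to 8316 in control cells at 8 h. The separation at 8 h was that of the deposited scale: as CPM without the ribosomal gene Rn45s the sums overlapped, with 12200 to 19850 in KO and 18620 to 18790 in control cells. The fibroblast genes Lum, Dcn and Postn were listed at or near 0, Dcn and Postn being genes with more than 1 transcript. Of 8 neuroectoderm markers 3 were tested, and 2 of these, Sox1 and Tubb3, were called higher in KO over the mean of 0 and 4 h, and neither after TMM scaling (limma adjusted p = 0.0848 and 0.0638). The part of these markers in the values below was not tested, and in bulk RNA fewer cells of a type and less RNA per cell cannot be told apart.

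**Figure D1:**
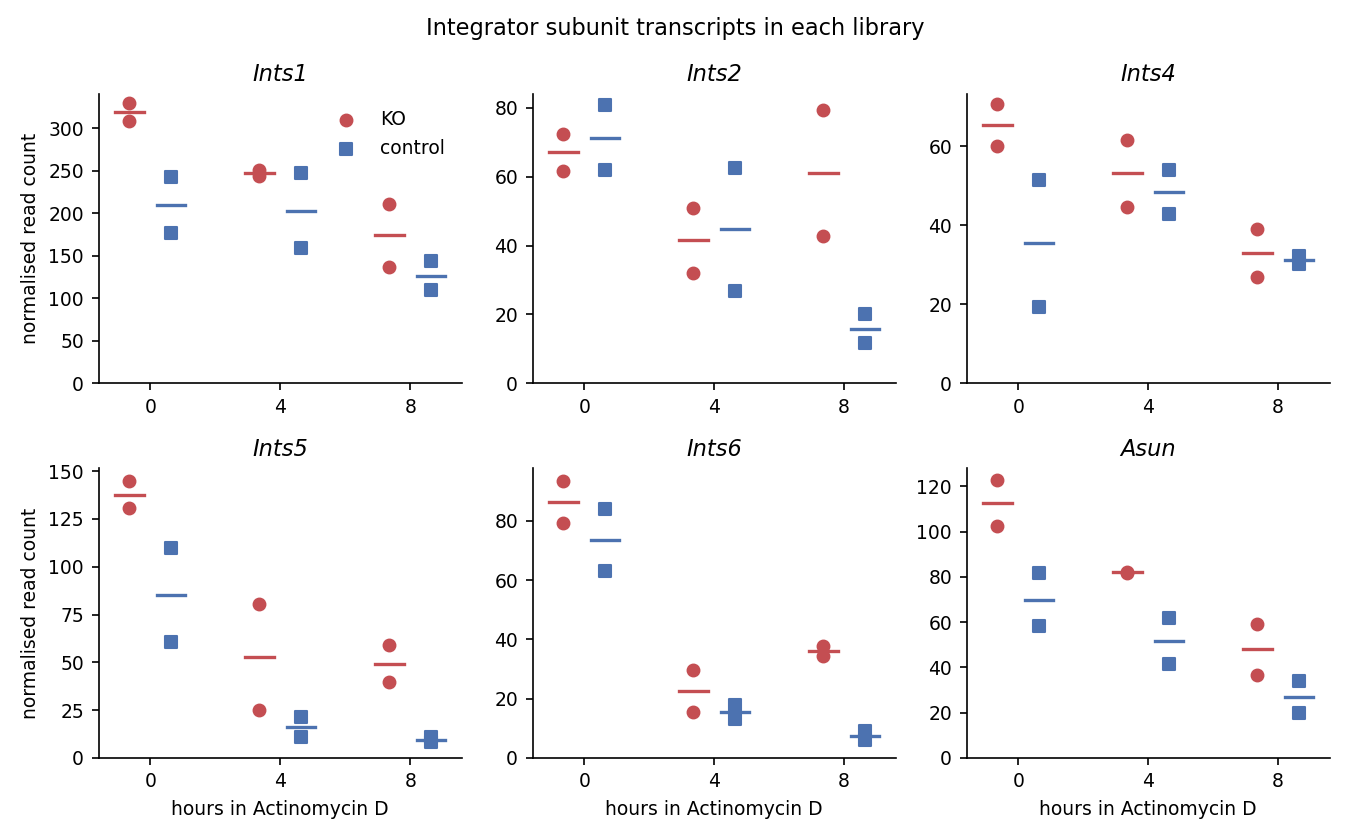
Normalised read count (y axis, linear from 0, deposited scale) of each of the 6 genes against hours in Actinomycin D. Each point is 1 library, circles for KO and squares for control, and the bar is the mean of 2 libraries; at 8 h the KO points of Ints2, Ints5 and Ints6 lie at or above 34.4 units and the control points at or below 20.0.

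The level of each subunit at the start was compared per kilobase of transcript. In KO cells at 0 h, Ints1 stood at 45.2 ± 2.16 units per kilobase, Ints5 at 42.1 ± 3.10, Asun at 36.8 ± 4.78, Ints4 at 20.2 ± 2.35, Ints6 at 17.3 ± 2.02 and Ints2 at 11.4 ± 1.28 (SD, n = 2 each). In control cells at 0 h, Ints1 stood at 29.6 ± 6.58, Ints5 at 26.0 ± 10.6, Asun at 22.9 ± 5.43, Ints6 at 14.7 ± 2.94, Ints2 at 12.1 ± 2.26 and Ints4 at 10.9 ± 6.98. Ints1, Ints5 and Asun were the 3 highest in both genotypes. Neighbours in the order overlapped between libraries, except that Ints4 lay below Asun and Ints2 below Ints6 in KO cells, and Ints6 lay below Asun in control cells.

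The backbone gene Ints1 had 330.1 and 309 units in KO cells at 0 h, against 177 and 242 in control cells. At 4 h it had 251 and 244 in KO cells and 159 and 247 in control cells, and at 8 h 211 and 137 in KO cells and 110 and 144 in control cells. The genotypes were separate at 0 h and overlapped at 4 and 8 h. Ints2, its partner in the backbone, had 72.4 and 61.7 units in KO cells at 0 h, against 61.9 and 80.8 in control cells, and at 4 h 51.0 and 32 in KO cells, against 26.9 and 62.6 in control cells. At 8 h it had 42.7 and 79.3 in KO cells, against 20.0 and 11.7 in control cells. Both groups overlapped at 0 and 4 h, and only at 8 h did both KO libraries lie above both control libraries.

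Ints4, the scaffold of the cleavage module, had 70.7 and 59.9 units in KO cells at 0 h, against 51.4 and 19.4 in control cells. Its low value of 19.4 rests on 6 reads in control replicate 2, 1 of the 2 libraries that stood apart. At 4 h Ints4 had 61.7 and 44.6 in KO cells and 42.9 and 54.1 in control cells, and at 8 h 26.8 and 39.0 in KO cells and 30.3 and 32.1 in control cells. The genotypes overlapped at both later times.

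Of the genes for the part that carries PP2A, Ints5 had 145 and 131 units in KO cells at 0 h, against 60.6 and 110 in control cells, and at 4 h 25.2 and 80.4 in KO cells, against 10.9 and 21.6 in control cells. At 8 h it had 39.5 and 59.2 in KO cells, against 8.11 and 10.8 in control cells. Both KO libraries lay above both control libraries at each time on the deposited scale, which among the other members was so for Asun alone. Over all genes this separation was found for 37.3% at 0 h, 37% at 4 h and 55.3% at 8 h. The share separate at every time was not counted, and the 8 h values chose the members. Ints6, which links PP2A to the complex, had 79.2 and 93.4 units in KO cells at 0 h, against 63.2 and 84.0 in control cells, and at 4 h 29.7 and 15.5 in KO cells, against 13.1 and 17.8 in control cells. At 8 h it had 34.4 and 37.8 in KO cells, against 5.95 and 9.04 in control cells. The control values at 8 h rest on 11 and 20 reads for Ints6 and on 15 and 24 reads for Ints5.

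Asun, first described in Drosophila as a regulator of dynein in spermatocytes, had 123 and 102 units in KO cells at 0 h, against 81.7 and 58.1 in control cells. At 4 h it had 81.8 and 82.3 in KO cells, against 41.5 and 61.8 in control cells, and at 8 h 59.3 and 36.5 in KO cells, against 20.0 and 33.9 in control cells. On the deposited scale the KO libraries lay above the control libraries at each time. At 8 h this was narrow, with 36.5 units in the lower KO and 33.9 in the higher control library. After TMM scaling the KO libraries lay above at 4 h only.

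KO cells were first compared with control cells before and early in the drug. At 0 h the log2 change of KO over control was 1.02 ± 0.49 for Ints4, 0.75 ± 0.53 for Ints5, 0.69 ± 0.45 for Asun, 0.62 ± 0.39 for Ints1, 0.24 ± 0.53 for Ints6 and -0.08 ± 0.50 for Ints2 (SE). None of the 6 passed an adjusted p of 0.05 in limma, edgeR or DESeq2, where 4.23% of all genes were called higher by limma. Ints4 alone had an unadjusted p under 0.05 (limma adjusted p = 0.27). The change of Ints4 was 1.70 without control replicate 1 and 0.34 without control replicate 2, the library with 6 Ints4 reads (limma adjusted p = 0.0459 and 0.655). The median gene was itself higher in KO by 0.44, which was 0.02 without control replicate 1 and 0.81 without control replicate 2, and after TMM scaling, which assumes that most genes do not change, by 0.04. After TMM the changes came to 0.60 for Ints4, 0.35 for Ints5, 0.29 for Asun, 0.22 for Ints1, -0.16 for Ints6 and -0.47 for Ints2, so that Ints6 took the other sign.

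At 4 h Ints5 had the largest change of the 6, 1.49 ± 0.53 (SE), followed by Asun with 0.69 ± 0.45, Ints6 with 0.47 ± 0.53, Ints1 with 0.32 ± 0.39, Ints4 with 0.12 ± 0.49 and Ints2 with -0.02 ± 0.50. None was called in limma, edgeR or DESeq2, where 0.748% of genes were called higher by limma. Ints5 was the member with an unadjusted p under 0.05 (limma adjusted p = 0.23). The size for Ints5 rests on KO replicate 2, which had 80.4 units: it was 0.68 without that library and 2.31 without KO replicate 1.

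Over the mean of 0 and 4 h, Ints5 rose in KO by 1.12 ± 0.37 (SE; limma adjusted p = 0.0496), 1 of 6 members called, beside 8.63% of all genes. Asun changed by 0.69 ± 0.32 (SE; limma adjusted p = 0.179), and the other 4 had changes of -0.05 to 0.57 with no call. The call for Ints5 did not hold after TMM, where the change was 0.80 (limma adjusted p = 0.134) and 3.98% of genes were called higher. Without KO replicate 2 of 4 h it was 0.71 (limma adjusted p = 0.448).

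Over the first 4 h of the drug Ints5 and Ints6 fell in both genotypes, and the other 4 members were called in neither. In KO cells Ints6 fell by 1.95 ± 0.53 and Ints5 by 1.58 ± 0.53 on the log2 scale (SE; limma adjusted p = 0.0105 and 0.0363), beside 14.4% of all genes called lower. In control cells Ints5 fell by 2.33 ± 0.53 and Ints6 by 2.18 ± 0.53 (SE; limma adjusted p = 0.00224 and 0.00449), beside 11.8%. These 4 h levels were 38.4% of the 0 h mean for Ints5 and 26.2% for Ints6 in KO cells, against 19.1% and 21.0% in control cells. Ints1 stood at 77.5% in KO cells and 97.1% in control cells, Asun at 72.9% in KO and 73.9% in control cells, Ints2 at 61.9% in KO and 62.7% in control cells, and Ints4 at 81.3% in KO and 137% in control cells. For these 4 genes the direction depended on the scaling, except for Ints2 and Ints4 in control cells: after TMM, Ints1 stood at 135% in KO and 149% in control cells, Asun at 127% in KO and 104% in control cells, Ints2 at 109.5% in KO and 93.5% in control cells, and Ints4 at 143% in KO and 181% in control cells.

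**Figure D2:**
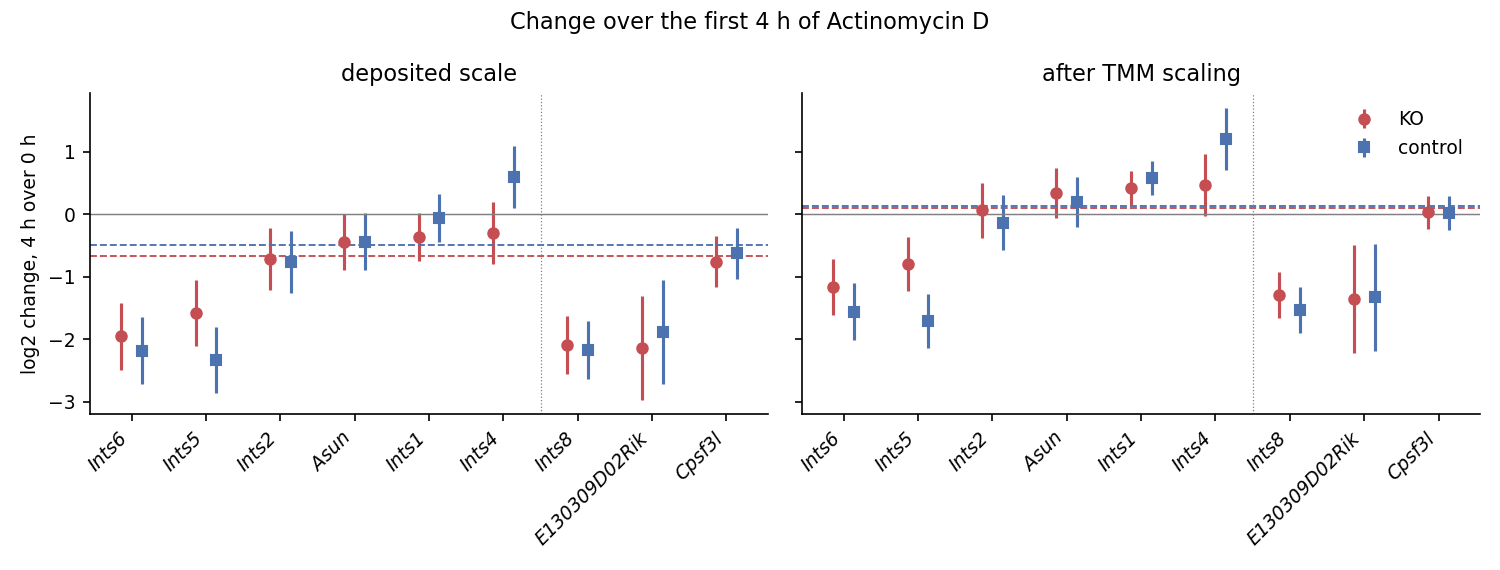
Log2 change from 0 to 4 h (y axis) with its SE for the 6 genes and, right of the dotted line, 3 other Integrator subunit genes, on the deposited scale and after TMM scaling; circles are KO, squares control, dashed lines the median gene in each genotype. Ints5 and Ints6 lie below the median gene in both genotypes under both scalings, as do Ints8 and E130309D02Rik and, by less, Ints2 and Cpsf3l.

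The fall in control cells stood after TMM, where Ints5 fell by 1.71 and Ints6 by 1.56 (limma adjusted p = 0.0148 and 0.0287; 6.36% of genes called lower). In KO cells it did not: Ints6 had -1.17 and Ints5 -0.80 after TMM (limma adjusted p = 0.111 and 0.268; 4.32% of genes called lower). Leaving out control replicate 1 of 4 h ended both calls in control cells, with -1.87 for Ints5 and -1.98 for Ints6 (limma adjusted p = 0.104 and 0.0857). In KO cells leaving out either 0 h library ended both calls, leaving out KO replicate 1 of 4 h ended that of Ints5 (-0.77, limma adjusted p = 0.638), and leaving out KO replicate 2 of 4 h ended that of Ints6 (-1.50, limma adjusted p = 0.175). A different fall in KO and control cells was not shown for any member. The difference of the 0 to 4 h changes, KO minus control, was 0.75 ± 0.74 for Ints5, 0.23 ± 0.75 for Ints6 and -0.90 ± 0.70 for Ints4 (SE). None of the 6 was called by limma, edgeR or DESeq2 and none had an unadjusted limma p under 0.05, where 0.0144% of genes were called higher.

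The contrast at 8 h chose the members, and its values are a description. The log2 change of KO over control was 2.25 ± 0.53 for Ints5, 2.15 ± 0.53 for Ints6 and 1.86 ± 0.50 for Ints2, which is 4.76-, 4.44- and 3.62-fold on the log2(value + 1) scale. It was 0.81 ± 0.45 for Asun, 0.44 ± 0.39 for Ints1 and 0.05 ± 0.49 for Ints4 (SE). Among all genes, 96.9% had a lower change than Ints5, 96.5% than Ints6 and 94.1% than Ints2, but 62.3% than Asun, 36.3% than Ints1 and 16.2% than Ints4. Because the choice of members used this contrast, the count past the limma threshold, 3 of 6 beside 4.88% of all genes as deposited and 0 of 6 beside 1.41% after TMM, supports nothing about them. Both KO libraries lay above both control libraries for 4 of 6, beside 55.3% of all genes.

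The change between 4 and 8 h was read in each genotype, again as a description. In KO cells Ints6 changed by 0.72 ± 0.53, Ints2 by 0.52 ± 0.50 and Ints5 by 0.10 ± 0.53 on the log2 scale, while the median gene changed by -0.45 (SE). In control cells Ints6 changed by -0.96 ± 0.53, Ints2 by -1.36 ± 0.50 and Ints5 by -0.66 ± 0.53, with a median gene at -0.79. Ints4 and Ints1 changed by -0.68 and -0.54 in KO cells and by -0.61 and -0.66 in control cells. The labels report an ERCC spike-in, but spike-in values were not used here and how the deposited factors were set is not stated in the labels. On the deposited scale the median gene changed over 8 h by -1.15 in KO cells and by -1.33 in control cells, and after TMM by -0.0025 in KO cells and 0.10 in control cells, so the direction of a change over time can depend on the scaling.

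**Figure D3:**
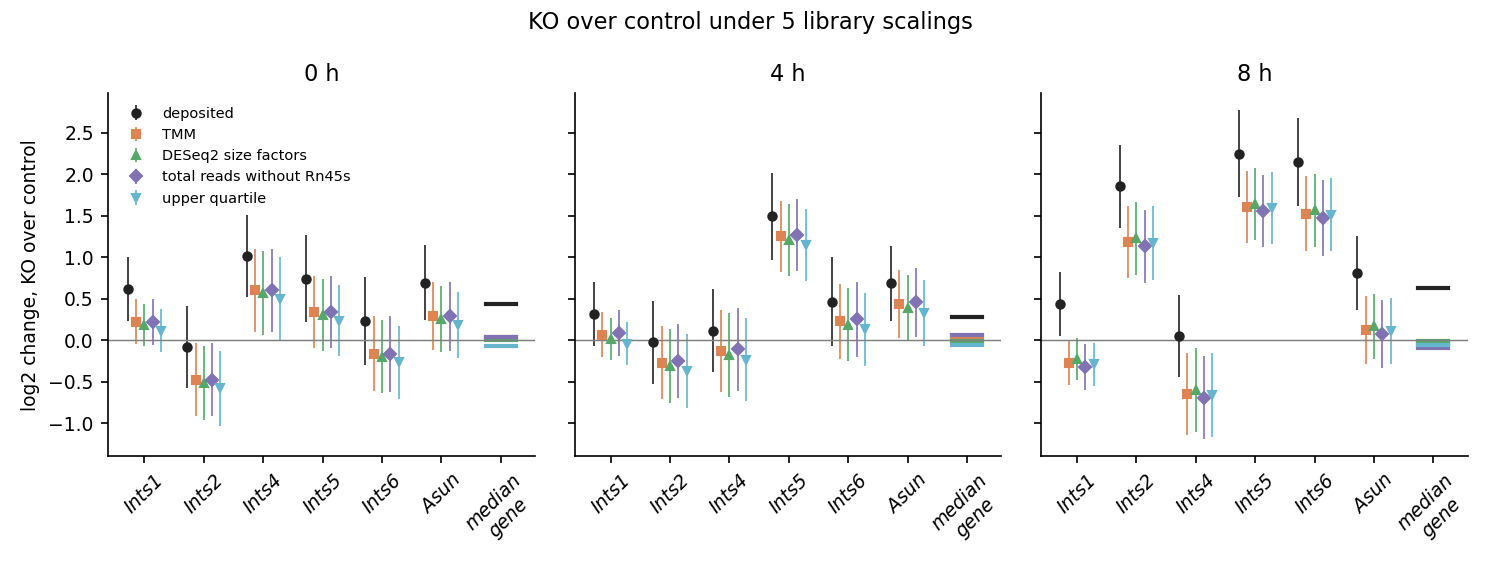
Log2 change of KO over control (y axis) with its SE for the 6 genes at 0, 4 and 8 h, under the deposited scaling and 4 others; short bars on the right of each panel give the median gene. At 8 h Ints2, Ints5 and Ints6 lie above 1 under all 5 scalings, Asun above 0, and Ints1 and Ints4 lie below 0 under the 4 others.

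The scaling of the libraries moved every member by a like amount. At 8 h the median gene was higher in KO by 0.63 as deposited and by -0.05 after TMM. Over the 5 scalings the change at 8 h was 1.55 to 2.25 for Ints5, 1.47 to 2.15 for Ints6, 1.14 to 1.86 for Ints2 and 0.08 to 0.81 for Asun. Ints1 ran from -0.32 to 0.44 and Ints4 from -0.69 to 0.05, so that both were above 0 as deposited and below 0 after each of the 4 others. After TMM both KO libraries lay above both control libraries for Ints2, Ints5 and Ints6, beside 19.3% of genes, and below them for Ints4, beside 20.4%. With 1 library left out at a time, on the deposited scale, the change at 8 h stayed within 1.96 to 2.54 for Ints5, 1.89 to 2.42 for Ints6 and 1.42 to 2.30 for Ints2.

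At the earlier times the count of separate groups also moved with the scaling. At 0 h both KO libraries lay above both control libraries for Ints1, Ints4, Ints5 and Asun as deposited, beside 37.3% of genes, and for Ints1 and Ints5 after TMM, beside 24.2%. Ints2 was then lower in both KO libraries, beside 20.4% of genes. At 4 h Ints5 and Asun were separate both as deposited, beside 37% of genes, and after TMM, beside 27.1%.

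The ratio of 2 subunits within a library does not depend on any scaling. Ints1, the member with most reads, served as the denominator. The ratios do depend on Ints1, and a lower Ints1 count raises every ratio of its library. After TMM Ints1 had 284 and 153 units in KO libraries 1 and 2 at 8 h, against 244 and 260 in control libraries. For each 100 reads of Ints1 there were 18.7 and 43.1 reads of Ints5 in KO libraries at 8 h, against 7.39 and 7.55 in control libraries. For Ints6 there were 16.3 and 27.5 in KO, against 5.42 and 6.29 in control, and for Ints2 20.2 and 57.8 in KO, against 18.2 and 8.18 in control. All 3 were higher in both KO libraries, with a KO minus control difference in log2 ratio of 1.93, 1.86 and 1.49. The 8 h values chose the members, so these ratios are a description. How many of all genes separate in this way was not counted.

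Asun to Ints1 differed less at 8 h, with 28.1 and 26.6 reads in KO, against 18.2 and 23.6 in control, a difference of 0.40 in log2 ratio. Ints4 to Ints1 overlapped, with 12.7 and 28.4 in KO and 27.6 and 22.3 in control. At 0 h the order was another one. Ints5 to Ints1 stood at 43.9 and 42.3 in KO and 34.3 and 45.3 in control, and overlapped. Ints6 to Ints1 was lower in both KO libraries, 24.0 and 30.3, against 35.8 and 34.7 in control, and so was Ints2 to Ints1, with 21.9 and 20.0 in KO, against 35.1 and 33.3 in control. At 4 h Ints5 to Ints1 and Asun to Ints1 were higher in both KO libraries, with differences of 1.23 and 0.38 in log2 ratio. The ratios of Ints2, Ints4 and Ints6 overlapped at 4 h. The exact two-sided permutation test of 2 against 2 libraries cannot give a p below 0.333, so no p is attached to the ratios.

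**Figure D4:**
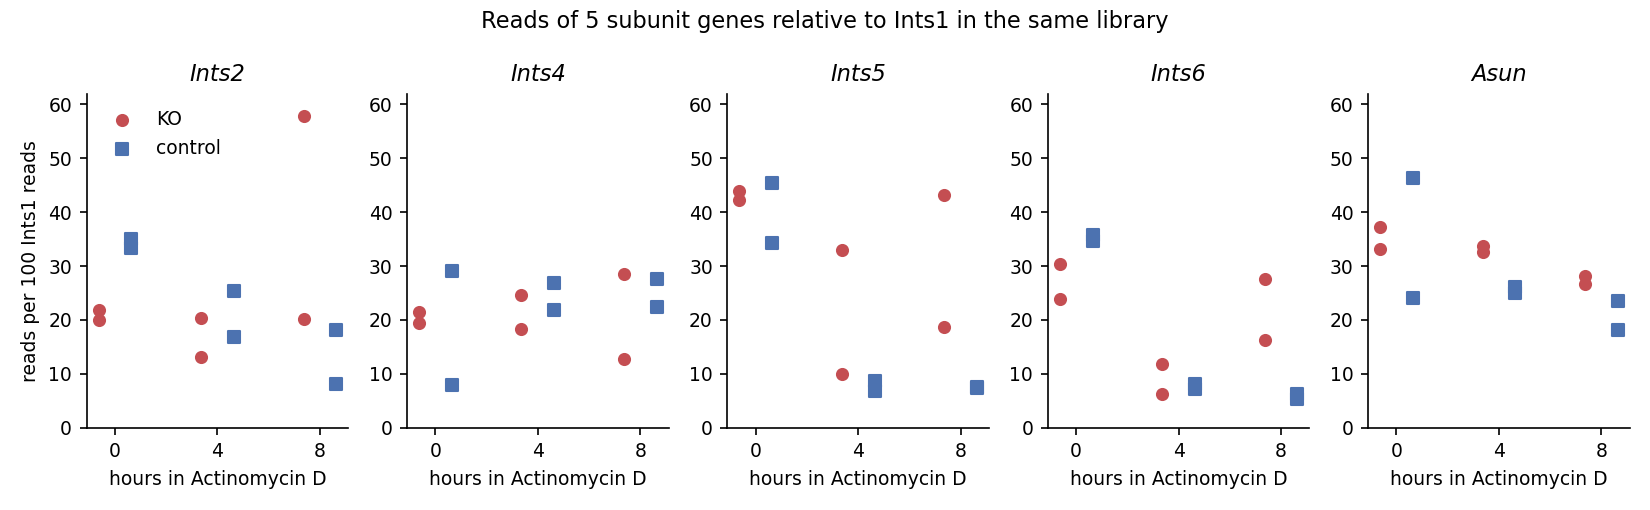
Reads of 5 subunit genes for each 100 reads of Ints1 in the same library (y axis, linear from 0) against hours in Actinomycin D; each point is 1 library, circles for KO and squares for control. At 8 h the KO points of Ints5 lie at 18.7 and 43.1 and the control points at 7.39 and 7.55.

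Levels of the members were set against each other after TMM. Pearson's r between Ints5 and Ints6 was 0.70 over the 12 libraries, and 0.55 over the 8 libraries of 0 and 4 h, which leave out those that chose the members. It was 0.67 between Ints1 and Ints4 over 12 libraries and 0.84 over 8, 0.60 and 0.69 between Ints1 and Asun, and 0.52 and 0.85 between Ints4 and Asun. It was -0.57 over 12 libraries and -0.58 over 8 for Ints1 with Ints5, and -0.53 and -0.64 for Ints1 with Ints6. The libraries share times, genotypes and depth, and the 12 include the 8 h libraries that chose the members, so these values describe the samples. Of 1516 other genes with a mean of at least 100, those whose TMM-scaled levels ran most like the mean of the 6 over the 12 libraries were Kcnq1ot1, the long non-coding RNA of the Kcnq1 imprinted cluster (r = 0.739), Vprbp (r = 0.731), the histone H4 gene Hist1h4i (r = 0.704), Manba, a lysosomal mannosidase (r = 0.669), and Tex2 (r = 0.640).

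Of 10 other Integrator subunit genes looked up, 3 were tested. The other 7, Ints3, Ints7, Ints9, Ints10, Ints12, Vwa9 and Ddx26b, had means below 10. Of these, 4 are genes with more than 1 transcript in the table, for which a low value is no measure of the RNA. Genes with 1 transcript can share this limit, since Nelfb, which has 1, was listed at 0. Ints8, which binds PP2A, was called lower over the first 4 h like Ints5 and Ints6: it fell by 2.09 ± 0.46 in KO cells and by 2.17 ± 0.46 in control cells (SE; limma adjusted p = 0.0016 and 0.00115). After TMM it fell by 1.30 in KO cells and by 1.53 in control cells (limma adjusted p = 0.0322 and 0.0112). At 8 h Ints8 had 52.3 and 186 units in KO cells, against 41.6 and 50.6 in control cells, a change of 1.09 as deposited and 0.39 after TMM.

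Cpsf3l, the endonuclease subunit also called Ints11, had 159 and 339 units at 8 h in KO cells, against 118 and 131 in control cells, a change of 0.90 as deposited and 0.19 after TMM. Its changes from 0 to 4 h were -0.76 in KO cells and -0.62 in control cells, with no call. E130309D02Rik, the third, had 59.0 and 49.4 units in KO cells at 0 h, against 27.7 and 22.6 in control cells, with no call in any contrast of 0 and 4 h. At 4 h it stood at 22.0% of its 0 h mean in KO cells and 41.3% in control cells. After TMM these were 39.1% and 54.15%. Its 4 h values rest on 27 and 9 reads in KO cells and on 2 and 25 in control cells. KO over control, none of the 3 was called at 0 h, at 4 h or over their mean by limma, edgeR or DESeq2, and none had an unadjusted limma p under 0.05.

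Genes that work beside Integrator were counted over the mean of 0 and 4 h. Of 7 genes of the PP2A core and of the SOSS complex, a DNA repair complex with Integrator subunits, 4 were tested and none was called. Beside 8.63% of all genes, none was called of 13 tested genes of pausing and elongation or of 10 tested of cleavage and polyadenylation. Of 10 tested RNA polymerase II subunit genes 1 was called, Polr2l, with 118 ± 22.1 units in KO cells and 50.6 ± 2.99 in control cells at 0 h (SD, n = 2 each), a log2 change of 1.15 over both times (limma adjusted p = 0.0227). The call was lost after TMM (0.82, limma adjusted p = 0.0776), where 3.98% of all genes were called higher. Of 5 tested genes of the cap-binding and exosome targeting complexes, Zcchc8 alone was called, and lower. The list medians ran from 0.13 to 0.50, beside 0.37 for all genes and 0.52 for the 6 Integrator members. Of 12 small nuclear RNA genes 2 were in the table and neither was tested, so the RNAs that Integrator processes could not be read here.

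From 0 to 4 h, 2 of the 13 pausing and elongation genes fell in KO cells, beside 14.4% of all genes, and 5 in control cells, beside 11.8%. After TMM 1 was called lower and 1 higher in KO cells, and 3 lower in control cells. Over all genes after TMM, 4.32% were called lower in KO cells and 6.36% in control cells. Called higher were 328 of 6952 genes in KO cells and 438 in control cells. Mepce, the capping enzyme of the 7SK RNA, fell by 2.90 ± 0.63 in KO cells and fell by 3.58 ± 0.63 in control cells (SE; limma adjusted p = 0.00133 and 8.47e-05). Of the 10 cleavage and polyadenylation genes 2 fell in KO cells and 3 in control cells, beside the same shares of all genes. After TMM 2 were called lower and 2 higher in KO cells, and 2 lower and 1 higher in control cells, again beside those shares. Pcf11, a termination factor, fell by 2.07 ± 0.45 in KO cells and by 2.33 ± 0.45 in control cells (SE; limma adjusted p = 0.00116 and 0.000293). No tested polymerase subunit, PP2A or SOSS gene was called in either genotype.

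Reads of overlapping genes can enter the counts, since the labels do not say whether counting used the strand. In the GRCm38 annotation the exons of Ints1, Ints4 and Asun overlap no other gene. Ints6 shares 39 bases with 4931440J10Rik on the opposite strand, and that gene stood at 170 to 213 units in KO cells and 67.2 to 152 in control cells at 0 h, and at 28.7 to 69.3 in KO and 23.5 to 24.9 in control cells at 8 h. Ints2 shares 512 bases with Brip1os on the opposite strand, and Ints5 shares 469 bases with Gm49416 on the same strand, and values of these partners were not used here. Cpsf3l shares 623 bases with Pusl1 on the opposite strand. The 2 transcripts of Ints8 share 201 and 255 bases with Ccne2, also on the opposite strand. At 8 h Pusl1 stood at 37.6 to 80.6 units in KO cells and 28.6 to 31.6 in control cells. Ccne2 then stood at 2.55 to 6.30 in KO and 0.452 to 1.08 in control cells. The part of these partners in the values of Ints2, Ints5, Ints6, Cpsf3l and Ints8 was not tested.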

How the data were processed

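Total RNA of ESCs was sequenced after removal of ribosomal RNA, per the labels' protocols. The deposited values are a signal per RefSeq transcript: the authors divided each library's read counts by 1 factor, and dividing by the value of 1 read gave whole numbers, within a tolerance of 0.001, for 100% of entries. Per the submitters' processing notes, the build was mm9 and the tools were HTSeq 0.6.0, TopHat2 2.1.1 and DESeq2, with settings not stated. Of 33896 rows, 978 repeated another and were dropped, and transcripts were summed by symbol. Of 59 samples, 12 were used.

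The test, for genes whose mean reached 10, was limma 3.58.1 in R 4.3.3 (trend, robust) on log2(value + 1), as 6 group means in 1 fit, two-sided, adjusted by Benjamini-Hochberg across the 6952 genes tested, at a threshold of 0.05. Because of the pseudocount, changes of genes with low values come out too small. Alternatives were 4 other scalings (TMM, DESeq2 size factors, total reads without the ribosomal gene Rn45s, upper quartile), edgeR 4.0.16 and DESeq2 1.42.0 on the recovered reads, pseudocounts of 5 and 0.5, no filter, the 0 and 4 h libraries alone, a replicate block, and leaving out each library. The fits were tested on simulated data. UTR sequences, lengths and exon overlaps came from GENCODE on GRCm38, and no mm9 coordinate was used.

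The members and gene lists were chosen with earlier results of these data known. Named were all members, Zcchc8, the tested genes among other Integrator subunits, up to 4 genes of smallest p over the mean of 0 and 4 h in each other list, and the 5 genes most like the members.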

Additional observations from a re-analysis of the deposited data

How the results depend on the processing

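Counts of called members moved with the processing, and so did those over all 6952 genes tested. Over the mean of 0 and 4 h, 600 genes were called higher as deposited. It was 223 to 293 after the 4 other scalings and 302 with DESeq2. At 8 h these counts were 339, 95 to 100 and 152. From 0 to 4 h, 998, 267 to 388 and 487 were called lower in KO cells. In control cells they were 817, 386 to 572 and 540. Over the mean of 0 and 4 h, 1 member was called higher in KO, against 0 after each of the 4 other scalings, with edgeR after TMM, with DESeq2, with a pseudocount of 0.5 and with no filter, and 0 to 1 with 1 library left out. From 0 to 4 h in KO cells 2 were called lower, against 0 after the 4 other scalings, with edgeR after TMM and with DESeq2, 1 with no filter, and 0 to 2 with 1 library left out; in control cells the 2 calls stood under all these settings, and 0 to 2 stood with 1 library left out. At 8 h, where the values chose the members and the count supports nothing, 3 members were past the threshold, against 0 after the 4 other scalings, with edgeR after TMM and with no filter, 1 with DESeq2, and 0 to 3 with 1 library left out. At 0 h 0 were called, and 1 without control replicate 1 of 0 h, namely Ints4 (1.70, limma adjusted p = 0.0459), whose change was 0.34 without control replicate 2 of 0 h (limma adjusted p = 0.655). The count of members with both KO libraries above both control libraries at 0 h, compared across scalings after seeing the data, was 4 as deposited, 2 after TMM and 1 after each of the other 3. Over all genes this separation was found for 37.3% as deposited and 24.2% after TMM, and it was not counted for the other 3. Of 516 log2 changes of members under other settings, 67 took the other sign, and of 504 with 1 library left out, 24 did; no called change was among them. The cause of these moves was not tested, except that leaving out a library leaves a group with 1, which is then assumed to vary like the others.

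Same-numbered libraries did not deviate together (correlation of their differences -0.07 to 0.12), so the numbers were not taken as pairs. The replicate block changed no count of called members, with 0, 0, 1 and 3 called higher at 0 h, at 4 h, over their mean and at 8 h, and 2 lower from 0 to 4 h in each genotype. Over the mean of 0 and 4 h, edgeR on the recovered reads with the deposited factors called 570 genes higher and 22 lower in KO, against 600 and 16 by limma. Over all genes the block raised the count called higher at 8 h to 754, against 339 without it. Depth limits the low members: 11 to 54 reads for Ints6 and 15 to 86 for Ints5 in a library.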
